A study of Homo sapiens with 13 samples.

Results

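The response of H82 cells to FHD-286 was measured by RNA sequencing in 6 of the 13 libraries of the study, 3 untreated and 3 treated, and described across the 19770 of 56831 listed genes that reached at least 1 TPM in at least 3 of those 6 libraries. H82 is an established small cell lung cancer (SCLC) line of the NEUROD1-high, neuroendocrine kind, wild type in the labels and grown in RPMI with fetal bovine serum. FHD-286 inhibits both ATPases of the SWI/SNF chromatin remodeling complexes, SMARCA4 and SMARCA2. Treated cells received 100 nM for 14 days, and untreated cells received no compound, so no solvent control was part of the comparison. The other 7 libraries are of H146, a second SCLC line, and are used here only to choose genes for a check of treated replicate 2 and to set levels of liver genes beside those of H82. The line is 1 model of the disease, and nothing in the labels says that the replicates were separate cultures, so the p-values measure the spread between these libraries, which may be technical.

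SWI/SNF complexes use the energy of ATP to slide and evict nucleosomes, and in many cell types they keep enhancers and promoters of lineage genes open to transcription factors. SCLC cells of the neuroendocrine kind carry a neuronal program, with synaptic vesicles, dense-core granules and ion channels. NEUROD1 is a proneural transcription factor that also acts in the retina, the pineal gland and endocrine cells, and NEUROD1-high lines share parts of the photoreceptor program with those tissues.

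In H82 treated with FHD-286, more genes were lower than higher in the lists of photoreceptor genes, striated muscle and contractile genes, voltage-gated channels, synaptic release genes and T-cell receptor segments, with a negative median for each list under all 3 scalings tried. The shares lower were 83.8% of photoreceptor, 62.2% of contractile, 67.4% of channel and 65% of synaptic release genes, against 45.5% of all genes. Of the 23 segments tested, 20 passed the filter through untreated libraries alone, which fixes their direction. The same holds for 10 of 37 photoreceptor, 14 of 37 contractile and 14 of 46 channel genes tested. The shares lower of these lists include such genes, so their distance from the share of all genes is partly fixed by the filter. The steepest falls took *ACTA1* and *RBP3* from 212 TPM or more to under 3 TPM. A set of plasma protein genes of the liver, led by *ALB*, was near 0 in untreated libraries and present in every treated library, *ALB* at 310.1 TPM or more. Nuclear genes of the respiratory chain rose in 60 of 75 cases (80%) and HOX genes in 12 of 19 (63.2%), against 13.1% of all genes. *SMARCA4* and *SMARCA2*, the targets of the compound, did not pass the test with the deposited values of all 6 libraries.

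The values are TPM, reads corrected for gene length and brought to 1 total per library, which hides how many reads stand behind a value, so depth is unknown and no counting interval is given. Untreated libraries had between 21227 and 21772 genes at 1 TPM or more and treated libraries between 15554 and 16633. Transcripts of the mitochondrial genome took 22.1% to 24.1% of the TPM of untreated and 12.3% to 14.9% of treated libraries. On log2(TPM + 1), untreated libraries correlated with each other at 0.956 to 0.975 and treated libraries at 0.946 to 0.978 across genes, which are not independent replicates. Markers of hepatocytes were near 0 in untreated and abundant in all 3 treated libraries. Some genes of H146 appeared in all 3 treated libraries, most of them in treated replicate 2. Both are given beside the results they touch. Values of the replicates 1, 2 and 3 are given in that order throughout. Log2 fold changes are treated minus untreated on the log2(TPM + 1) scale, which understates the change of low genes, and genes were called lower or higher at an adjusted *p* under 0.05 in limma.

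The identity of the cells was checked first. *NEUROD1* was at 231, 234 and 224 TPM untreated and 48.1, 91.1 and 112 TPM treated. The groups did not overlap, and the treated libraries kept NEUROD1 at 48.1 TPM or more (log2 fold change -1.53, standard error 0.30, limma adjusted *p* = 0.00418). *SYP*, the synaptic vesicle protein synaptophysin, was at 202, 193 and 212 TPM untreated and 31.5, 58.1 and 50.7 TPM treated (log2 fold change -2.13, standard error 0.23, limma adjusted *p* = 0.000441). *MYT1*, a zinc finger factor of neuronal differentiation, was at 35.0, 30.5 and 31.5 TPM untreated and 2.66, 1.38 and 1.05 TPM treated (log2 fold change -3.67, standard error 0.25, limma adjusted *p* = 0.000131). The 3 markers were thus well above 1 TPM in every untreated library and lower in every treated library.

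The targets of FHD-286 did not pass the test with the deposited values. *SMARCA4*, the ATPase BRG1, was at 80.0, 61.8 and 80.0 TPM untreated and 51.0, 92.99 and 106 TPM treated, with overlapping groups (log2 fold change 0.11, standard error 0.28, limma adjusted *p* = 0.752). Without treated replicate 1, the lowest of the 6 libraries for this gene, the log2 fold change of SMARCA4 was 0.428 and passed the test (limma adjusted *p* = 0.03305). *SMARCA2*, the ATPase BRM, was at 5.61, 5.51 and 4.71 TPM untreated and 3.71, 5.32 and 4.01 TPM treated, again with overlap (log2 fold change -0.24, standard error 0.20, limma adjusted *p* = 0.336). After quantile normalization it turned to a rise that passed (0.66, limma adjusted *p* = 0.0356). FHD-286 blocks the enzymes and not their transcripts, so these levels do not check the labels. Of 27 SWI/SNF subunits tested, 6 were lower, 3 higher and 18 not past the threshold, against 45.5% of all genes lower and 13.1% higher (median -0.14). SWI/SNF subunits had a median of 0.31 with 1 lower and 7 higher after the median of ratios, and of 0.094 with 4 and 6 after quantile normalization. That median was -0.22 without treated replicate 2 with the deposited values. *SMARCE1*, a core subunit, fell most, from 2.70, 3.01 and 2.83 to 0.467, 0.728 and 0.854 TPM (log2 fold change -1.20, standard error 0.19, limma adjusted *p* = 0.00177). *ARID1A*, of the canonical complex, and *PBRM1*, of the polybromo complex, were also lower (-0.75 and -0.96). After the median of ratios neither passed (-0.27, limma adjusted *p* = 0.157, and -0.48, limma adjusted *p* = 0.0566), and *SMARCE1* did not pass after quantile normalization (-0.075, limma adjusted *p* = 0.776). *SMARCD3* rose most (log2 fold change 1.06, standard error 0.38, limma adjusted *p* = 0.0459), and it did not pass without treated replicate 2 (1.15 (limma adjusted *p* = 0.0740)) or without any other library but treated replicate 3 (largest limma adjusted *p* = 0.141), nor did either of the other higher subunits without treated replicate 2.

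Most of the genes that moved went down. Of 19770 genes, 8996 (45.5%) were lower and 2588 (13.1%) higher in treated H82. By a log2 fold change of 1 or more, 6800 (34.4%) were lower and 1356 (6.86%) higher. The treated libraries lay wholly below the untreated libraries for 10160 genes (51.4%) and wholly above for 3245 genes (16.4%). The median log2 fold change of all genes was -0.56, so a list is read here against that value. Counts of a list are likewise read against 45.5% lower and 13.1% higher. Nuclear protein-coding genes alone had a median of -0.245, with 34.8% lower and 17.9% higher. For lists of such genes the share of all genes is thus a high reference for falls and a low one for rises. A gene under 1 TPM in every library of 1 group passed the filter through the other group alone and had to differ, so the number of such members is given with the lists that hold many and their calls are no support for a list. The split depends on the scaling: after the median of ratios, which lines libraries up by their middle genes, the median of all genes was -0.14 and the calls were 6499 lower (32.9%) and 4793 higher (24.2%), and after quantile normalization the median was 0.008 with 4859 lower and 5256 higher.

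**Figure D1:**
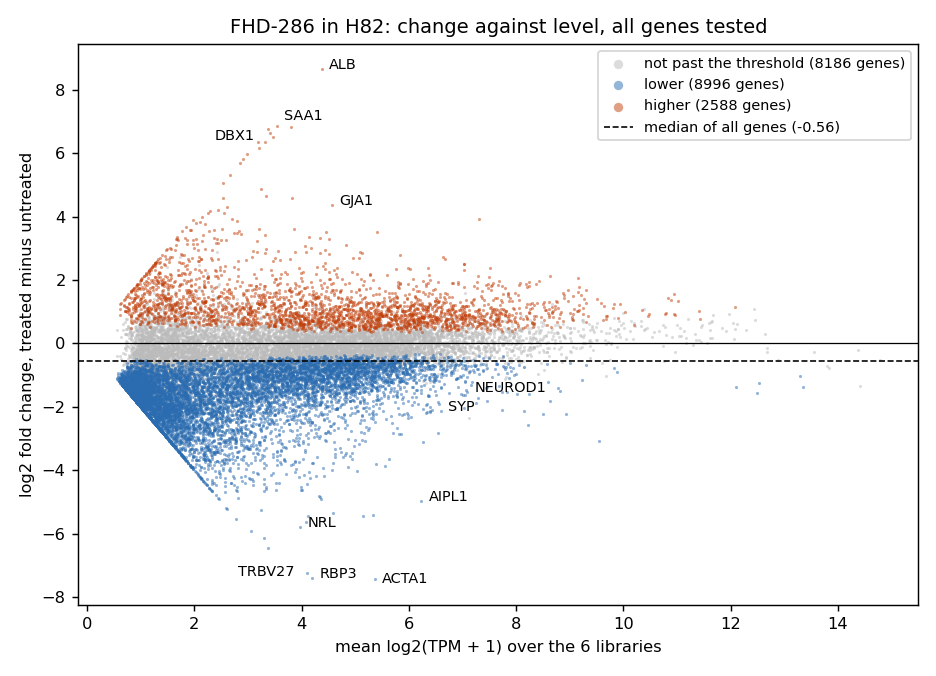
Each point is 1 of the 19770 genes tested, at its mean log2(TPM + 1) over the 6 libraries (horizontal axis) and its log2 fold change, treated minus untreated (vertical axis), in blue where lower, in orange where higher and in grey where not past the threshold. The dashed line marks the median of all genes at -0.56, and most of the blue points of low level lie on the left edge of the cloud, where treated values are near 0.

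The fall was spread unevenly over kinds of gene. Among 12700 protein-coding genes of the nuclear genome, 34.8% were lower and 17.9% higher (median -0.245, and 0.203 with the median of ratios). Among 325 small nuclear RNA genes 64.9% were lower and 0.308% higher (median -2.11), and among 125 small nucleolar and Cajal body RNA genes 71.2% were lower and 0 higher (median -2.04). Summed over all small nuclear RNA genes listed, tested or not, untreated libraries held 3693 to 4733 TPM and treated libraries 365 to 705 TPM. MicroRNA genes (222 tested) were lower in 58.6% and higher in 2.25%, long noncoding RNAs (235) in 53.2% and 7.66%, pseudogenes (458) in 63.3% and 5.90%, and the 5500 listed symbols with no single match in the annotation in 65.1% and 4.64%. Short genes gain many TPM from few reads, and reads on them were not counted here. Whether the lower level of these classes in all 3 treated libraries came from the cells or from how the libraries were made was not tested.

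The 20 largest falls, among genes past the threshold whose groups did not overlap, held 6 protein-coding genes, 2 T-cell receptor segments, 3 microRNA genes, 2 small nucleolar RNA genes, 1 ribosomal RNA pseudogene and 6 clone-named or Rfam-named genes with no single match. The 20 largest rises were all protein-coding, and 16 of them encode plasma proteins made by hepatocytes. List members named in the following that are not the largest rise or fall of their list, and protein-coding genes beyond the 20 largest falls, were chosen after their values were seen.

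**Figure D2:**
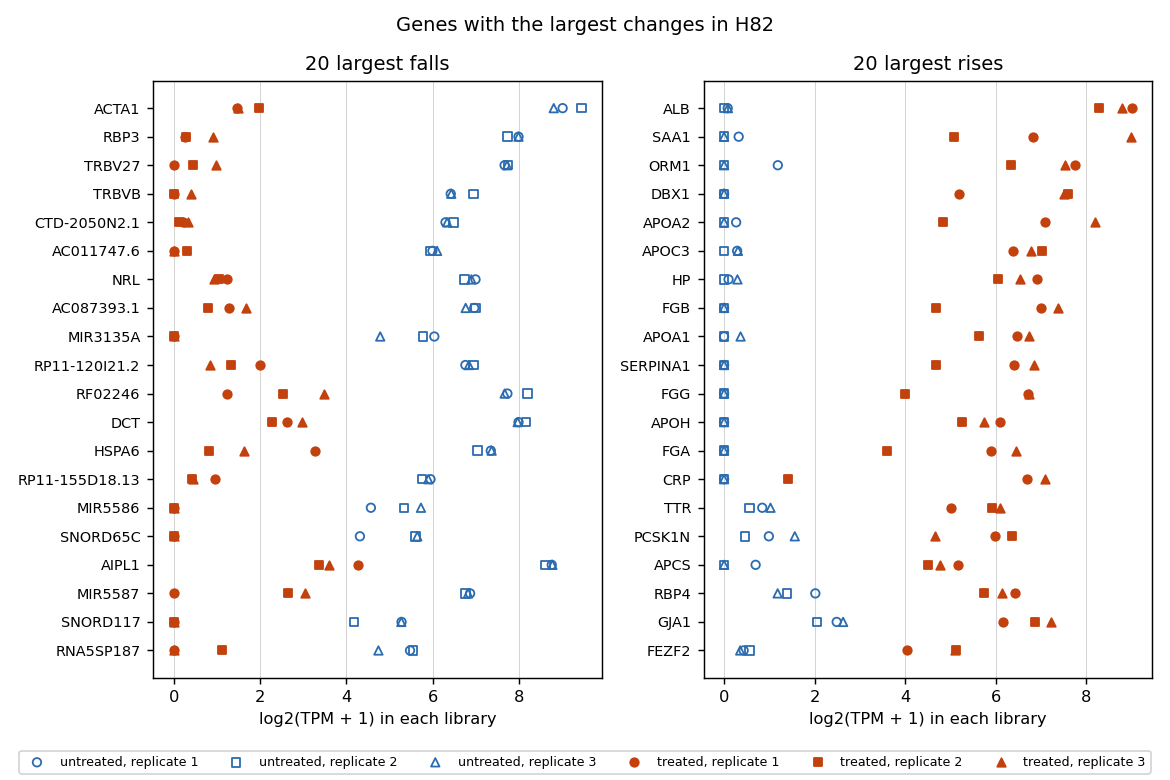
Level in log2(TPM + 1) of the genes with the 20 largest falls (left) and the 20 largest rises (right) in each of the 6 H82 libraries, open blue symbols for untreated and filled orange symbols for treated replicates. The groups are far apart for every gene shown, and treated replicate 2 (squares) is the lowest treated library for most of the plasma protein genes, with CRP at 1.65 TPM against 102 and 135 TPM.

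Photoreceptor and pineal genes, which carry out the light response, its recovery and the retinoid cycle, were mostly lower. Of 52 listed genes 37 were tested, of which 31 were lower (83.8%, against 45.5% of all genes) and 0 higher (median -1.67). Photoreceptor and pineal genes had a median of -1.26 with 28 lower and 0 higher after the median of ratios, and of -1.23 with 23 and 3 after quantile normalization. The filter kept 10 through untreated libraries alone, so the share lower rests in part on genes whose direction it fixed. Summed over the 52 genes, the list held 2873 to 2933 TPM in untreated and 834 to 1283 TPM in treated libraries.

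*RBP3*, the retinoid carrier between photoreceptors and the pigment epithelium (ENSG00000265203.2, chromosome 10, 47348363 to 47357881, hg38), was at 253, 212 and 253 TPM untreated and 0.196, 0.227 and 0.895 TPM treated. All 3 treated libraries were under 1 TPM (log2 fold change -7.41, standard error 0.22, limma adjusted *p* = 2.16e-05). *NRL*, the leucine zipper factor that sets rod identity, was at 126, 106 and 118 TPM untreated and 1.34, 1.07 and 0.901 TPM treated (log2 fold change -5.81, standard error 0.16, limma adjusted *p* = 2.16e-05). *AIPL1*, a chaperone of the phosphodiesterase of rods and cones, was at 432, 392 and 437 TPM untreated and 18.3, 9.30 and 11.04 TPM treated (log2 fold change -4.98, standard error 0.24, limma adjusted *p* = 7.18e-05). These 2 stayed above 0.9 TPM in each treated library, at a small part of their untreated level. *CRX*, the homeobox factor of cones, rods and pinealocytes (ENSG00000105392.17, chromosome 19, 47819779 to 47843330), was at 36.6, 32.6 and 33.9 TPM untreated and 0.678, 0.533 and 0.788 TPM treated, below 1 TPM in every treated library (log2 fold change -4.41, standard error 0.17, limma adjusted *p* = 4.58e-05).

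Further members fell. The rod phosphodiesterase subunit *PDE6A* (-4.14), the transducin regulator *PDC* (-3.75), the orphan receptor *NR2E3* (-3.68), cone arrestin *ARR3* (-3.47), recoverin *RCVRN* (-3.37) and the retinal transporter *ABCA4* (-2.95) had the next largest falls. *CACNA1F*, the calcium channel of the photoreceptor synapse, was at 111, 98.0 and 115 TPM untreated and 6.80, 0.861 and 2.63 TPM treated (log2 fold change -4.86, standard error 0.47, limma adjusted *p* = 0.000317). *OTX2*, the homeobox factor upstream of the retinal program, was at 1004, 1067 and 1017 TPM untreated and 586, 733 and 856 TPM treated and did not pass the threshold (log2 fold change -0.52, standard error 0.20, limma adjusted *p* = 0.0586). Its treated libraries were the lower ones. The median of ratios gave -0.030, while it passed after quantile normalization (-1.004, limma adjusted *p* = 0.00282), without treated replicate 1 (-0.38, limma adjusted *p* = 0.0120) and without treated replicate 3 (-0.65, limma adjusted *p* = 0.0414).

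The promoter of *CRX* is shown because its product and OTX2 bind the same short motif. It covers the 250 bases before the start of the RefSeq gene, with each GGATTA in capitals, from GRCh38.p14.
CRX promoter, chr19:47821687-47821936, plus strand: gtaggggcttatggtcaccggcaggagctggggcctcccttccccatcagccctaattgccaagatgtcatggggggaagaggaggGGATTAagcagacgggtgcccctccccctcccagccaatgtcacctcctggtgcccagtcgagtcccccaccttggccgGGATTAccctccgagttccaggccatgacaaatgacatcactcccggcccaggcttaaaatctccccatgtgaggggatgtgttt
The 2 matches begin 164 and 85 bases before the start. GGATTA, searched on both strands, was in 10 of the 36 listed photoreceptor genes with a promoter entry (27.8%) and in 1885 of 27305 RefSeq promoters of the same length (6.90%). A match is a description of the letters and not of binding.

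Striated muscle and contractile genes were also mostly lower, although H82 is not a muscle line. Of 54 listed contractile genes 37 were tested, of which 23 were lower (62.2%, against 45.5% of all genes) and 4 higher (median -1.67). Striated muscle and contractile genes had a median of -1.48 with 22 lower and 4 higher after the median of ratios, and of -0.83 with 19 and 5 after quantile normalization. Of these the filter kept 14 through untreated libraries alone and 1 through treated libraries alone. The share lower thus rests in part on genes whose direction the filter fixed. *ACTA1*, skeletal muscle actin (ENSG00000143632.15, chromosome 1, 229430365 to 229434104), was at 515, 699 and 446 TPM untreated and 1.76, 2.97 and 1.79 TPM treated. It had the largest fall of all genes (log2 fold change -7.44, standard error 0.23, limma adjusted *p* = 2.16e-05). *TNNC2*, fast troponin C, was at 76.6, 101 and 60.3 TPM untreated and 4.09, 1.43 and 1.60 TPM treated (log2 fold change -4.63, standard error 0.33, limma adjusted *p* = 0.000146). *MYL1*, a fast myosin light chain, was at 12.7, 20.5 and 11.9 TPM untreated and listed at 0 in every treated library (limma adjusted *p* = 0.000111). *TNNI2*, fast troponin I, *CASQ1*, the calcium store protein of fast fibres, and *MYOD1*, the myogenic master factor, were also lower (-3.57, -3.51 and -2.34).

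The 4 members that rose are of the heart and slow muscle. *ACTC1*, cardiac actin, was at 0.951, 1.01 and 0.530 TPM untreated and 2.22, 101 and 12.1 TPM treated (log2 fold change 3.16, standard error 1.11, limma adjusted *p* = 0.0436). *MYH7*, the slow myosin heavy chain, was at 13.6, 11.7 and 11.6 TPM untreated and 24.1, 185 and 33.8 TPM treated (log2 fold change 2.04, standard error 0.69, limma adjusted *p* = 0.0380). Both were highest in treated replicate 2 by a wide margin, and their values without it were 1.84 (limma adjusted *p* = 0.0392) and 1.16 (limma adjusted *p* = 0.00658). *CSRP3* and *TNNI3* were the others (2.44 and 1.84), and without treated replicate 2 the list had 24 lower and 3 higher. None of the 4 passed with any 1 untreated library left out (largest limma adjusted *p* = 0.112 for *ACTC1*, 0.108 for *MYH7*, 0.0895 for *CSRP3* and 0.130 for *TNNI3*). Without treated replicate 3 *ACTC1* and *CSRP3* did not pass, nor did *TNNI3* without treated replicates 1 or 2.

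Segments of the T-cell receptor beta locus made up another group. Of 86 listed segments 23 were tested. The filter kept 20 through untreated libraries alone, so that the 22 lower and 0 higher segments were nearly fixed by it (median -2.16). The segments had a median of -1.97 with 22 lower and 0 higher after the median of ratios, and of -1.49 with 16 and 1 after quantile normalization. The list summed to 451 to 562 TPM in untreated and 10.4 to 20.2 TPM in treated libraries. *TRBV27* (ENSG00000211752.3, chromosome 7, 142715346 to 142715861) was at 202, 213 and 211 TPM untreated and 0, 0.359 and 0.989 TPM treated (log2 fold change -7.23, standard error 0.26, limma adjusted *p* = 3.55e-05), and the pseudogene segment *TRBVB* at 84.6, 123 and 85.3 TPM untreated and 0, 0 and 0.313 TPM treated (log2 fold change -6.47, standard error 0.22, limma adjusted *p* = 3.55e-05). The level in the untreated cells was thus high and narrow, and it was nearly gone in each treated library. Leukocyte markers were low on both sides, with 6 of 20 tested and a summed 26.9 to 36.5 TPM untreated against 9.81 to 16.3 TPM treated. Of these, *CSF1R*, a macrophage receptor, fell most (log2 fold change -3.12, standard error 0.37, limma adjusted *p* = 0.000595). *TRAC*, the alpha constant segment, was listed at 0 in the untreated libraries and at 2.57, 4.55 and 6.80 TPM in the treated ones (limma adjusted *p* = 0.000699).

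Among the small RNA genes of the largest falls, *MIR3135A* was at 64.8, 53.9 and 26.6 TPM, *MIR5586* at 22.8, 39.6 and 52.1 TPM and *SNORD65C* at 18.9, 47.5 and 49.0 TPM in untreated cells, and all 3 were listed at 0 in every treated library. *MIR5587* was at 116, 108 and 112 TPM untreated and 0, 5.24 and 7.22 TPM treated (log2 fold change -4.92, standard error 0.73, limma adjusted *p* = 0.00141). *SNORD117* went from 37.9, 17.1 and 37.7 TPM to a listing at 0 throughout, and *RNA5SP187* was at 43.5, 45.8 and 25.8 TPM untreated and 0, 1.17 and 0 TPM treated. These values are reads at the precursor genes, each scaled by a very short length. *MIR3135A* (chromosome 3, 20137565 to 20137641, plus strand) lies in an intron of *KAT2B*, a histone acetyltransferase, on the same strand, *MIR5586* in an intron of *RTN1*, a neuronal reticulon, *MIR5587* in an intron of *CAPN15*, a calpain, and *SNORD117* in an intron of *DDX39B*, a helicase of mRNA export. Their hosts had log2 fold changes of -1.02, -1.42, -1.22 and -1.29, of which that of *CAPN15* was not past the threshold with all 6 libraries but passed without treated replicate 1 (-0.54, limma adjusted *p* = 0.0327) or 3 (-1.62, limma adjusted *p* = 0.0498), and that of *KAT2B* did not pass after quantile normalization (-0.33, limma adjusted *p* = 0.149), and reads of a host's intron and of the small RNA were not told apart here.

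The mature sequences of the 3 microRNAs are given from RefSeq, GRCh38.p14, with the seed, bases 2 to 8, in capitals.
hsa-miR-3135a: uGCCUAGGcugagacugcagug
hsa-miR-5586-5p: uAUCCAGCuuguuacuauaugc
hsa-miR-5586-3p: cAGAGUGAcaagcugguuaaag
hsa-miR-5587-5p: aUGGUCACcuccgggacu
hsa-miR-5587-3p: gCCCCGGGcagugugaucauc
No seed was shared between them. Mature microRNAs were not measured by these libraries.

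Of the other protein-coding genes among the largest falls, *DCT*, dopachrome tautomerase of melanin synthesis, was at 253, 287 and 249.8 TPM untreated and 5.13, 3.83 and 6.90 TPM treated (log2 fold change -5.42, standard error 0.20, limma adjusted *p* = 4.5e-05). *HSPA6*, an inducible heat shock chaperone, was at 162, 130.3 and 164 TPM untreated and 8.62, 0.761 and 2.10 TPM treated, with its 3 treated libraries spread over more than a factor of 10 and all far below the untreated ones (log2 fold change -5.35, standard error 0.57, limma adjusted *p* = 0.000406). *COL27A1*, a fibrillar collagen, fell by 4.40 on the log2 scale, and *PALMD*, a palmdelphin of the cytoplasm, by 4.43. *SEMA3F*, a secreted axon guidance cue, *CHRNA1*, the muscle acetylcholine receptor subunit, and *DPP4*, a surface peptidase, had values of -4.22, -3.997 and -4.02. The rule that chose these genes required groups without overlap, so its absence is no result, and 51.4% of all genes lay wholly below.

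Genes of synaptic release fell more often than they rose. Of 40 tested, 26 were lower (65%, against 45.5% of all genes) and 4 higher (median -1.13). Without treated replicate 2 the counts were 27 and 4, where 41.4% and 10.5% of all genes were called. Synaptic release genes had a median of -0.66 with 21 lower and 6 higher after the median of ratios, and of -0.75 with 20 and 8 after quantile normalization. *UNC13A*, which primes vesicles, was at 40.7, 35.3 and 40.9 TPM untreated and 0.502, 1.84 and 0.410 TPM treated (log2 fold change -4.46, standard error 0.29, limma adjusted *p* = 0.000128). The small GTPase *RAB3B* and the active zone scaffold *BSN* were also lower (-2.75 and -2.64), and *SNAP25*, of the core fusion complex, was at -1.13 and did not pass after the median of ratios (-0.66, limma adjusted *p* = 0.0808). *SYN2*, a synapsin that tethers vesicles, rose most, from 7.93, 8.63 and 9.44 to 14.8, 25.1 and 28.01 TPM (log2 fold change 1.246, standard error 0.25, limma adjusted *p* = 0.00490). The summed level of all 45 listed genes was 1217 to 1255 TPM untreated and 503 to 673 TPM treated.

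Voltage-gated channels, which shape the firing of excitable cells, went the same way. Of 123 listed genes 46 were tested, of which 31 were lower (67.4%, against 45.5% of all genes) and 2 higher (median -1.24). The channels had a median of -0.92 with 26 lower and 6 higher after the median of ratios, and of -0.27 with 18 and 10 after quantile normalization. Here the filter kept 14 through untreated libraries alone and 1 through treated libraries alone, so this share too is in part fixed by it. The potassium channel *KCNH6*, the presynaptic calcium channel *CACNA1B* and the sodium channel subunit *SCN3B* fell beside *CACNA1F* (-4.29, -3.16 and -3.13). *KCNJ8*, an ATP-sensitive potassium channel, rose most, at 6.79, 5.43 and 5.60 TPM untreated and 14.3, 22.2 and 24.0 TPM treated (log2 fold change 1.58, standard error 0.23, limma adjusted *p* = 0.00127). All 3 of its treated libraries were above every untreated one.

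Dense-core granule genes, in contrast, split. Of 16 tested, 2 were lower (12.5%, against 45.5% of all genes) and 6 higher (37.5%, against 13.1%) (median 1.13). Without treated replicate 2 the counts were 4 and 6. Granule genes had a median of 1.52 with 2 lower and 8 higher after the median of ratios, and of 1.49 with 2 and 10 after quantile normalization. *SCG3* was at 229, 238 and 208 TPM untreated and 13.6, 47.8 and 24.2 TPM treated (log2 fold change -3.11, standard error 0.40, limma adjusted *p* = 0.000808), and chromogranin A, *CHGA*, at 159, 114 and 157 TPM untreated and 14.3, 62.5 and 21.1 TPM treated (log2 fold change -2.36, standard error 0.49, limma adjusted *p* = 0.00574). In both, treated replicate 2 was the least reduced library. *PCSK1N*, an inhibitor of prohormone convertase, was at 0.985, 0.381 and 1.95 TPM untreated and 62.1, 81.5 and 24.3 TPM treated (log2 fold change 4.66, standard error 0.48, limma adjusted *p* = 0.000381), and *CPE*, the carboxypeptidase that trims prohormones, at 223, 242 and 234 TPM untreated and 564, 557 and 545 TPM treated (log2 fold change 1.251, standard error 0.14, limma adjusted *p* = 0.000442). *NMB*, neuromedin B, also rose (2.19). *SCG2* was at 0.635, 0.572 and 1.13 TPM untreated and 8.83, 73.0 and 4.41 TPM treated and *VGF* at 1.06, 0.288 and 1.82 TPM untreated and 2.21, 39.6 and 14.6 TPM treated, each led by treated replicate 2. Without that library *SCG2* passed at 2.05 (limma adjusted *p* = 0.00438) and *VGF* did not (1.85 (limma adjusted *p* = 0.0666)). *VGF* did not pass without treated replicate 3 or without any 1 untreated library either (largest limma adjusted *p* = 0.111), and *SCG2* did not pass without untreated replicate 1 or 2 (largest limma adjusted *p* = 0.0678).

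Neuronal transcription factors moved in both directions. Of 48 listed factors 32 were tested, of which 9 were lower (28.1%, against 45.5% of all genes) and 14 higher (43.8%, against 13.1%) (median 0.39). The filter kept 2 through untreated libraries alone and 4 through treated libraries alone, which fixed their direction. *DBX1*, *FEZF2*, *ISL1* and *SOX2* were under 1 TPM in every untreated library. Neuronal lineage transcription factors had a median of 0.67 with 9 lower and 15 higher after the median of ratios, and of 0.77 with 7 and 17 after quantile normalization. That median was 0.078 without treated replicate 2 with the deposited values. Without treated replicate 2, 10 were lower and 10 higher. Beside *CRX* and *MYT1*, *NHLH1*, a helix-loop-helix factor of young neurons, was at 25.7, 24.1 and 28.6 TPM untreated and 2.56, 2.00 and 1.84 TPM treated (log2 fold change -3.12, standard error 0.18, limma adjusted *p* = 0.000101), and the LIM factor *LHX3* (-2.03) and *ONECUT2* (-1.57) also fell. *DBX1*, the homeobox factor of ventral interneuron precursors (ENSG00000109851.7, chromosome 11, 20156155 to 20160475), was listed at 0 in all untreated libraries and at 35.7, 192 and 180.0 TPM in the treated ones (limma adjusted *p* = 0.000258). *FEZF2*, the forebrain zinc finger factor, was at 0.350, 0.473 and 0.280 TPM untreated and 15.6, 34.1 and 33.5 TPM treated (log2 fold change 4.32, standard error 0.32, limma adjusted *p* = 0.000153). *EBF3*, of the COE family, was at 1.20, 1.12 and 0.886 TPM untreated and 14.8, 26.9 and 27.5 TPM treated and *LHX2*, of the forebrain and eye, at 1.16, 1.76 and 1.85 TPM untreated and 9, 14.8 and 15.9 TPM treated (3.49 and 2.43). For *DBX1*, *FEZF2*, *EBF3* and *LHX2* treated replicate 1 was the lowest treated library. *ISL1*, of motor and endocrine cells, was at 0.266, 0.180 and 0.497 TPM untreated and 7.59, 27.4 and 7.66 TPM treated and *SOX2*, of neural progenitors, at 0.0763, 0 and 0 TPM untreated and 3.99, 71.6 and 1.73 TPM treated, both highest in replicate 2 (without that library 2.72 (limma adjusted *p* = 0.000848) and 1.85 (limma adjusted *p* = 0.00506)). With any 1 untreated library left out *SOX2* did not pass (largest limma adjusted *p* = 0.107).

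The largest rises were of plasma protein genes. *ALB*, serum albumin (ENSG00000163631.18, chromosome 4, 73397114 to 73421482), was at 0.0568, 0 and 0.0606 TPM untreated and 516, 310.1 and 444 TPM treated (log2 fold change 8.64, standard error 0.21, limma adjusted *p* = 2.16e-05). No treated library was under 310.1 TPM and no untreated library reached 0.1 TPM. *APOC3*, an apolipoprotein of triglyceride-rich particles, was at 0.221, 0 and 0.236 TPM untreated and 82.1, 129.5 and 108 TPM treated and *ORM1*, an acute-phase glycoprotein, at 1.28, 0 and 0 TPM untreated and 214, 79.6 and 185 TPM treated. *HP*, haptoglobin, was at 0.0710, 0 and 0.227 TPM untreated and 119.7, 65.1 and 91.7 TPM treated. The 3 genes had log2 fold changes of 6.53, 6.81 and 6.37 with limma adjusted *p* of 3.5e-05, 0.000138 and 4.75e-05.

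Several genes of this set were listed at 0 in every untreated library. The fibrinogen chains *FGB*, *FGG* and *FGA* were at 128, 24.8 and 164 TPM, 105, 14.96 and 106 TPM and 58.7, 11.1 and 86.6 TPM in the treated libraries, *SERPINA1*, the elastase inhibitor, at 83.6, 24.8 and 113 TPM, and *APOH*, beta-2-glycoprotein, at 67.2, 37.1 and 52.8 TPM. *CRP*, C-reactive protein, was at 102, 1.65 and 135 TPM and *AHSG*, fetuin A, at 14.7, 2.89 and 25.6 TPM. *CRP* did not pass without treated replicate 3 or without any 1 untreated library (largest limma adjusted *p* = 0.0610). Treated replicate 2 was the lowest library in each of these 7 genes and the highest in *APOC3*. *SAA1*, serum amyloid A, was at 113, 33.0 and 507 TPM and *APOA2* at 136, 27.8 and 293 TPM, so their levels varied widely between treated libraries while that of *ALB* stayed between 310 and 516 TPM.

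Of 15 hepatocyte markers listed, 12 passed the filter, 11 of them with every untreated library under 1 TPM, so that their direction was fixed by it, and 12 were higher (median 5.90, values that depend on the pseudocount since 5 of the 15 were listed at 0 in every untreated library). Hepatocyte markers had a median of 6.13 with 0 lower and 12 higher after the median of ratios, and of 5.95 with 0 and 12 after quantile normalization. The 15 summed to 0.889 to 2.77 TPM in untreated and 662 to 1518 TPM in treated libraries. *HNF4A*, a defining transcription factor of hepatocytes, stayed under 1 TPM, at 0.105, 0 and 0.0840 TPM untreated and 0.278, 0.152 and 0.209 TPM treated. *TAT*, a liver aminotransferase, was at 0.0355, 0.144 and 0.0379 TPM untreated and 3.01, 3.23 and 0.212 TPM treated. Liver enzymes outside the list moved with it in value, *CYP3A4* to 24.8, 7.11 and 2.68 TPM, *CYP2C8* to 21.4, 7.18 and 2.83 TPM and *ADH4* to 12.7, 8.32 and 5.199 TPM from 1.06 TPM or less, and treated replicate 1 was highest in all 3.

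In the 7 libraries of H146, *ALB* was at 0.199 to 2.06 TPM, with *TTR*, transthyretin, at 28.6 to 154.6 TPM and *HNF4A* at 1.32 to 5.64 TPM. Whether the hepatocyte set came from the H82 cells or from other RNA in the treated libraries was not tested, and fewer cells of a type and less RNA per cell cannot be told apart in bulk libraries.

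Of the 4 genes among the largest rises that are not of the plasma, *GJA1*, the gap junction protein connexin 43, was at 4.61, 3.16 and 5.19 TPM untreated and 70.7, 116 and 148 TPM treated (log2 fold change 4.36, standard error 0.30, limma adjusted *p* = 0.000136). Its lowest treated library was far above its highest untreated one. *DBX1*, *FEZF2* and *PCSK1N* were the other 3. Of the rises outside these, *S100A10*, an annexin partner at the membrane, was at 0.124, 0.168 and 0.531 TPM untreated and 9.06, 38.4 and 30.9 TPM treated (log2 fold change 4.21, standard error 0.50, limma adjusted *p* = 0.000629).

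Energy metabolism genes of the nucleus rose together. Of 75 tested subunits of the respiratory chain and ATP synthase, 60 were higher (80%, against 13.1% of all genes) and 3 lower (median 1.11). Without treated replicate 2 the counts were 57 and 3. The nuclear subunits had a median of 1.58 with 3 lower and 66 higher after the median of ratios, and of 0.96 with 1 and 65 after quantile normalization. Their sum was 8054 to 8826 TPM in untreated and 17810 to 24330 TPM in treated libraries. *UQCRQ*, of complex III, was at 16.9, 16.4 and 18.9 TPM untreated and 82.2, 97.6 and 66.0 TPM treated (log2 fold change 2.16, standard error 0.18, limma adjusted *p* = 0.000197). *CYC1*, cytochrome c1, was at 194, 162 and 215 TPM untreated and 849.9, 888 and 775 TPM treated (log2 fold change 2.14, standard error 0.17, limma adjusted *p* = 0.000175). For both, the lowest treated library was above the highest untreated library. *NDUFV2*, of complex I, fell most (log2 fold change -1.72, standard error 0.22, limma adjusted *p* = 0.000776).

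The mitochondrial genome's own subunits did not rise with them, and their median was near that of all genes. Of 13 tested, 4 were lower (30.8%, against 45.5% of all genes) and 0 higher (against 13.1%). The median was -0.54, against -0.56 for all genes, and 2 were lower without treated replicate 2. Mitochondrially encoded proteins had a median of -0.043 with 1 lower and 0 higher after the median of ratios, and of -0.29 with 2 and 0 after quantile normalization. *MT-ND4L* was at 7037, 7595 and 6690.0 TPM untreated and 2421, 2776 and 3043 TPM treated (log2 fold change -1.38, standard error 0.27, limma adjusted *p* = 0.00432), *MT-ND2* at 14550.0, 19560.0 and 16480.0 TPM untreated and 5596, 5865 and 8371 TPM treated (log2 fold change -1.36, standard error 0.39, limma adjusted *p* = 0.0193) and *MT-ND1* at 14240.0, 14300.0 and 14190.0 TPM untreated and 7497, 5872 and 7834 TPM treated (log2 fold change -1.02, standard error 0.36, limma adjusted *p* = 0.0417). The last 2 did not pass without treated replicate 2 (-1.29 (limma adjusted *p* = 0.0589) and -0.90 (limma adjusted *p* = 0.120)) or after scaling by the median of ratios (limma adjusted *p* = 0.120 for the first and 0.296 for the second), nor after quantile normalization or with any 1 untreated library left out (largest limma adjusted *p* = 0.0902 for *MT-ND2* and limma adjusted *p* = 0.154 for *MT-ND1*). *MT-ND1* did not pass without treated replicate 3 either (-1.10, limma adjusted *p* = 0.0591). The ribosomal RNA *MT-RNR1* was at 9755, 10880.0 and 9252 TPM untreated and 5316, 2992 and 2328 TPM treated (log2 fold change -1.58, standard error 0.39, limma adjusted *p* = 0.0116), and it did not pass after the median of ratios (-1.08, limma adjusted *p* = 0.0671) or without untreated replicate 2 (-1.51, limma adjusted *p* = 0.0524).

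Of 77 cytosolic ribosomal protein genes, 17 were higher (22.1%, against 13.1% of all genes) and 3 lower (3.90%, against 45.5%) (median 0.53). Cytosolic ribosomal proteins had a median of 1.02 with 3 lower and 50 higher after the median of ratios, and of 0.049 with 3 and 7 after quantile normalization. The list summed to 98530 to 114200 TPM untreated and 127900 to 241500 TPM treated, with replicate 1 the highest. *RPS21* was at 1264, 994 and 1189 TPM untreated and 5381, 2991 and 2406 TPM treated (log2 fold change 1.57, standard error 0.34, limma adjusted *p* = 0.00655) and *RPL8* at 3144, 2467 and 3135 TPM untreated and 8917, 5648 and 5391 TPM treated (log2 fold change 1.16, standard error 0.32, limma adjusted *p* = 0.0181). In both, treated replicate 1 stood above the other treated libraries, and *RPL8* did not pass with any 1 untreated library left out (largest limma adjusted *p* = 0.0920). *RPL36A* fell most, at 18.9, 26.8 and 19.2 TPM untreated and 6.48, 2.42 and 5.82 TPM treated (log2 fold change -1.998, standard error 0.33, limma adjusted *p* = 0.00211). Ribosomal protein genes have many pseudogene copies that can take part of the reads.

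Genes of cell cycle exit moved in both directions, and most genes of mitosis did not pass the test. Of 17 tested CDK inhibitor and cell cycle exit genes, 5 were higher (29.4%, against 13.1% of all genes) and 4 lower (23.5%, against 45.5%) (median -0.33). Without treated replicate 2 the counts were 5 higher and 2 lower. The cell cycle exit list had a median of 0.15 with 2 lower and 6 higher after the median of ratios, and of 0.48 with 2 and 8 after quantile normalization. That median was -0.024 without treated replicate 2 with the deposited values. The CDK inhibitors p21, p27 and p16/ARF, *CDKN1A*, *CDKN1B* and *CDKN2A*, were at 0.252, 0 and 0.0671 TPM untreated and 6.23, 56.3 and 4.39 TPM treated, 12.4, 11.8 and 10.2 TPM untreated and 39.4, 58.0 and 40.8 TPM treated and 75.0, 69.6 and 91.7 TPM untreated and 255, 288 and 285.5 TPM treated. *CDKN1B* and *CDKN2A* rose by similar amounts in all treated libraries (1.90 and 1.80), while *CDKN1A* was led by replicate 2 (log2 fold change 3.57, standard error 0.83, limma adjusted *p* = 0.00903, and 2.503 (limma adjusted *p* = 0.00121) without it). *CCND1*, cyclin D1, was at 0.238, 0.376 and 0.382 TPM untreated and 4.45, 14.3 and 17.8 TPM treated (log2 fold change 3.13, standard error 0.45, limma adjusted *p* = 0.00128). *BTG2*, an antiproliferative factor, fell most (log2 fold change -2.25, standard error 0.19, limma adjusted *p* = 0.000222), and *RB1*, the retinoblastoma gene, was at 7.27, 8.47 and 7.61 TPM untreated and 1.62, 1.70 and 1.61 TPM treated (log2 fold change -1.73, standard error 0.18, limma adjusted *p* = 0.000369).

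Of 40 mitosis genes 4 were lower (10%, against 45.5% of all genes), 1 higher (2.5%, against 13.1%) and 35 not past the threshold (median -0.17). Mitosis genes had a median of 0.32 with 2 lower and 6 higher after the median of ratios, and of -0.24 with 9 and 2 after quantile normalization. With the deposited values that median was -0.38 without treated replicate 2 and turned to 0.135 without treated replicate 1. The list summed to 2316 TPM in treated replicate 1, 5527 and 5570 TPM in treated replicates 2 and 3 and 4652 to 4832 TPM untreated. *MKI67*, the proliferation antigen Ki-67, was at 133, 123 and 132 TPM untreated and 9.11, 40.2 and 50.8 TPM treated (log2 fold change -2.23, standard error 0.57, limma adjusted *p* = 0.0131), and *CENPE* and *CENPF*, of the kinetochore, were also lower (-1.62 and -1.56). *CENPF* did not pass after the median of ratios (-1.08, limma adjusted *p* = 0.0520) or without untreated replicate 2 (-1.52, limma adjusted *p* = 0.0593). *SPC24* rose (log2 fold change 1.16, standard error 0.22, limma adjusted *p* = 0.00338). Of 47 DNA replication genes 14 were higher (29.8%, against 13.1% of all genes) and 3 lower (6.38%, against 45.5%) (median 0.24). Without treated replicate 2 the counts were 8 higher and 3 lower. *GINS4* rose most (1.07) and *POLE*, the leading-strand polymerase, fell most (-1.28). The replication list had a median of 0.73 with 2 lower and 28 higher after the median of ratios, and of 0.29 with 4 and 16 after quantile normalization. That median was 0.092 without treated replicate 2 with the deposited values. Of 37 replication-dependent histone genes tested 9 were lower (24.3%, against 45.5% of all genes) and 6 higher (16.2%, against 13.1%) (median -0.34). The histone genes had a median of 0.024 with 3 lower and 7 higher after the median of ratios, and of 0.60 with 2 and 13 after quantile normalization. *HIST1H2BK* was at 9.06, 3.40 and 4.84 TPM untreated and 32.0, 105 and 74.0 TPM treated (log2 fold change 3.33, standard error 0.48, limma adjusted *p* = 0.00123), and *HIST2H2BE* at 17.3, 13.1 and 19.3 TPM untreated and 3.27, 6.83 and 3.43 TPM treated (log2 fold change -1.72, standard error 0.29, limma adjusted *p* = 0.00226).

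Genes of sterol and fatty acid synthesis were lower in a share near that of all genes and above that of nuclear protein-coding genes (34.8%). Of 31 tested genes 16 were lower (51.6%, against 45.5% of all genes) and 1 higher (3.23%, against 13.1%) (median -0.92), the same count without treated replicate 2. The synthesis genes had a median of -0.43 with 12 lower and 4 higher after the median of ratios, and of -0.84 with 18 and 2 after quantile normalization. That median was -0.61 without treated replicate 1 with the deposited values. *INSIG1*, a sterol-responsive regulator of the pathway, was at 166, 174 and 169.5 TPM untreated and 26.3, 45.1 and 41.1 TPM treated (log2 fold change -2.19, standard error 0.21, limma adjusted *p* = 0.000313). Its treated libraries were all below the untreated ones. *PMVK*, phosphomevalonate kinase, rose (log2 fold change 1.56, standard error 0.14, limma adjusted *p* = 0.000240). Glycolysis and transporter genes were mostly not past the threshold, with 4 lower and 1 higher of 28 (median -0.13), with *ARRDC4* falling most (log2 fold change -1.46, standard error 0.46, limma adjusted *p* = 0.0299). The glycolysis and transporter list had a median of 0.36 with 3 lower and 4 higher after the median of ratios, and of -0.23 with 5 and 3 after quantile normalization. That median was -0.37 without treated replicate 2 and 0.42 without treated replicate 1 with the deposited values. *ARRDC4* did not pass after the median of ratios (-1.01, limma adjusted *p* = 0.0959), after quantile normalization (-0.97, limma adjusted *p* = 0.101) or with any 1 untreated library left out (largest limma adjusted *p* = 0.0925). Of 23 genes of the integrated stress response 1 was lower and 5 higher (median -0.22), with *SLC7A5* (-0.66) and *STC2* (1.76) at the ends. The stress response list had a median of 0.27 with 0 lower and 7 higher after the median of ratios, and of 0.13 with 3 and 3 after quantile normalization. With the deposited values that median was -0.56 without treated replicate 1, 0.055 without replicate 2 and 0.316 without replicate 3. The list summed to 5758 TPM in treated replicate 1, 2523 and 2143 TPM in treated replicates 2 and 3 and 2987 to 3194 TPM untreated. *SLC7A5* did not pass after the median of ratios (-0.17, limma adjusted *p* = 0.418) or without untreated replicate 1 or 3 (largest limma adjusted *p* = 0.0805), and *STC2* did not with any 1 untreated library left out (largest limma adjusted *p* = 0.0750).

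At the cell surface, some genes of MHC class I rose. *B2M*, the invariant chain, was at 17.6, 17.0 and 16.6 TPM untreated and 65.3, 76.5 and 69.5 TPM treated (log2 fold change 1.98, standard error 0.13, limma adjusted *p* = 0.000128) and *HLA-C* at 4.13, 6.62 and 4.33 TPM untreated and 27.0, 39.1 and 12.1 TPM treated (log2 fold change 2.05, standard error 0.41, limma adjusted *p* = 0.00476). Both were above every untreated library in each treated one. Of 14 tested antigen presentation genes 5 were higher (35.7%, against 13.1% of all genes), 2 lower (14.3%, against 45.5%) and 7 not past the threshold (median 0.43). The antigen presentation list had a median of 0.91 with 1 lower and 6 higher after the median of ratios, and of 0.70 with 0 and 7 after quantile normalization. *TAPBPL*, a peptide editor, fell most (-1.43) and did not pass after quantile normalization (-0.34, limma adjusted *p* = 0.211). Reads of HLA genes can be shared between alleles and paralogs. Interferon response genes moved in both directions. Of 20 tested genes 9 were lower and 4 higher (median -0.45), with *IRF7* falling most (-1.70, and -0.89, limma adjusted *p* = 0.0760 after quantile normalization) and *IFITM3* rising most (2.72). The interferon list had a median of 0.007 with 7 lower and 6 higher after the median of ratios, and of 0.34 with 3 and 8 after quantile normalization. The filter kept 4 through untreated libraries alone and 2 through treated libraries alone.

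Calcium-binding and mesenchymal genes moved in both directions. Of 19 S100 and annexin genes 8 were higher (42.1%, against 13.1% of all genes) and 5 lower (26.3%, against 45.5%) (median 0.48). *S100A10* and *S100A11* rose (4.21 and 3.60) and *S100A14* fell most (log2 fold change -3.02, standard error 0.21, limma adjusted *p* = 0.000139). S100 proteins and annexins had a median of 0.85 with 4 lower and 10 higher after the median of ratios, and of 0.96 with 3 and 12 after quantile normalization. Of 24 mesenchymal genes 8 were higher (33.3%, against 13.1% of all genes) and 7 lower (29.2%, against 45.5%) (median 0.44). Mesenchymal genes had a median of 0.84 with 4 lower and 12 higher after the median of ratios, and of 1.19 with 5 and 14 after quantile normalization. *VIM*, vimentin, was at 6.69, 8.45 and 7.34 TPM untreated and 43.6, 44.1 and 44.04 TPM treated, with 3 nearly equal treated libraries (log2 fold change 2.41, standard error 0.15, limma adjusted *p* = 0.000109), and *TGFB1*, the growth factor, at 19.9, 17.6 and 24.7 TPM untreated and 99.4, 168 and 195 TPM treated (log2 fold change 2.79, standard error 0.27, limma adjusted *p* = 0.000314). *S100A6* had the largest value and was led by replicate 2, at 1.78, 2.67 and 1.48 TPM untreated and 11.4, 159 and 9.20 TPM treated (log2 fold change 3.22, standard error 0.99, limma adjusted *p* = 0.0267, and 1.94 (limma adjusted *p* = 0.00259) without it), and it did not pass with any 1 untreated library left out (largest limma adjusted *p* = 0.0781). *TAGLN*, a smooth muscle actin binder, fell most (log2 fold change -2.12, standard error 0.38, limma adjusted *p* = 0.00286). The 3 of 13 fibroblast and endothelial markers that passed the filter, *COL1A2*, *LUM* and *DCN*, did so with 2 of them under 1 TPM in every untreated library, which fixed their direction, and were higher (2.01, 1.52 and 1.14), from 1.09 TPM or less to at most 8.99 TPM.

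Epithelial genes were few. Of 22 tested adhesion and polarity genes 7 were lower and 4 higher (median -0.026), with *LLGL2*, a polarity scaffold, falling most (log2 fold change -2.53, standard error 0.38, limma adjusted *p* = 0.00146) and *AGR2*, a secretory disulfide isomerase, rising most, at 0, 0.0912 and 0.0720 TPM untreated and 4.91, 42.4 and 1.17 TPM treated (log2 fold change 2.96, standard error 0.98, limma adjusted *p* = 0.0347, and 1.76 (limma adjusted *p* = 0.0172) without treated replicate 2). Epithelial adhesion and polarity genes had a median of 0.35 with 3 lower and 5 higher after the median of ratios, and of 0.90 with 2 and 11 after quantile normalization. That median was -0.18 without treated replicate 2 with the deposited values. *AGR2* did not pass with treated replicate 1 or any 1 untreated library left out (largest limma adjusted *p* = 0.0958). Of 14 keratins and claudins tested, of 83 listed, 5 were lower and 4 higher (median 0.36). Keratins and claudins had a median of 0.65 with 5 lower and 4 higher after the median of ratios, and of 1.22 with 4 and 7 after quantile normalization. That median was 0.068 without treated replicate 2 with the deposited values. *KRT8* and its partner *KRT18* rose (2.77 and 1.99), and *CLDN18*, a tight junction claudin of lung and stomach, fell most (log2 fold change -3.03, standard error 0.18, limma adjusted *p* = 0.000109). In the first list the filter kept 2 through untreated libraries alone and 3 through treated libraries alone, and in the second 1 through untreated libraries alone and 3 through treated libraries alone.

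Collagens, integrins and laminins had shares near those of all genes, while clustered protocadherins were mostly lower with the deposited values. Among nuclear protein-coding genes alone 34.8% were lower and 17.9% higher. Of 18 collagens tested 9 were lower and 2 higher, against 45.5% and 13.1% of all genes (median -0.81), with *COL27A1* (-4.40), *COL5A1* (-3.92) and *COL16A1* (-3.59) lowest and *COL1A2* highest. Collagens had a median of -0.55 with 9 lower and 2 higher after the median of ratios, and of 0.21 with 4 and 4 after quantile normalization. Of 21 integrins and laminins 9 were lower (42.9%) and 3 higher (14.3%) (median 0.042), from *ITGB8* (log2 fold change -2.43, standard error 0.18, limma adjusted *p* = 0.000152) to *LAMC1* (log2 fold change 1.61, standard error 0.15, limma adjusted *p* = 0.000260). Integrins and laminins had a median of 0.51 with 5 lower and 7 higher after the median of ratios, and of 0.43 with 4 and 10 after quantile normalization. That median was -0.36 without treated replicate 1 with the deposited values. Of 10 clustered protocadherins tested, of 56 listed, 9 were lower and 0 higher with the deposited values, led by *PCDHGC3* (log2 fold change -1.58, standard error 0.19, limma adjusted *p* = 0.000654, and -0.47, limma adjusted *p* = 0.0980 after quantile normalization), and the balance turned with the scaling (median -0.97). Clustered protocadherins had a median of -0.66 with 6 lower and 1 higher after the median of ratios, and of 0.037 with 0 and 2 after quantile normalization. The filter kept 4 through untreated libraries alone and 1 through treated libraries alone in the protocadherins and 4 through untreated libraries alone and 1 through treated libraries alone in the collagens. Protocadherin genes of a cluster share exons, so their reads cannot be parted safely.

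Among regulators of patterning, HOX genes rose. Of 39 listed HOX genes 19 were tested, with 12 higher (63.2%, against 13.1% of all genes) and 1 lower (median 1.15). Without treated replicate 2 the counts were 10 and 1. HOX cluster genes had a median of 1.52 with 1 lower and 14 higher after the median of ratios, and of 1.77 with 0 and 15 after quantile normalization. *HOXD8* was at 1.68, 1.68 and 1.71 TPM untreated and 18.9, 8.82 and 7.76 TPM treated (log2 fold change 2.15, standard error 0.33, limma adjusted *p* = 0.00150) and *HOXC10* at 1.89, 1.45 and 1.58 TPM untreated and 9.02, 11.9 and 9.58 TPM treated (log2 fold change 2.08, standard error 0.20, limma adjusted *p* = 0.000293), while *HOXA13* fell (log2 fold change -1.08, standard error 0.20, limma adjusted *p* = 0.00321, and -0.53, limma adjusted *p* = 0.0531 after quantile normalization). Of 47 WNT, Hedgehog and TGF-beta genes 12 were lower and 10 higher (median 0.032). The WNT, Hedgehog and TGF-beta list had a median of 0.39 with 7 lower and 15 higher after the median of ratios, and of 0.77 with 7 and 20 after quantile normalization. That median was -0.12 without treated replicate 2 with the deposited values. *NOG*, the secreted BMP antagonist noggin, was at 9.93, 10.7 and 14.1 TPM untreated and 59.6, 228 and 211 TPM treated (log2 fold change 3.53, standard error 0.50, limma adjusted *p* = 0.00113), *SMO*, the Hedgehog transducer, at 3.51, 4.57 and 5.18 TPM untreated and 23.5, 47.6 and 52.5 TPM treated (log2 fold change 2.89, standard error 0.32, limma adjusted *p* = 0.000455) and *SMAD3*, a TGF-beta effector, at 30.3, 31.9 and 31.2 TPM untreated and 4.30, 6.23 and 7.05 TPM treated (log2 fold change -2.25, standard error 0.20, limma adjusted *p* = 0.000231). *INHBE*, an activin subunit, fell most, its treated libraries ranging from 1.48 to 19.4 TPM (log2 fold change -3.09, standard error 0.68, limma adjusted *p* = 0.00701). Of 23 AP-1 and immediate early genes 6 were lower and 6 higher (median -0.25), *FOS* falling most (-2.27) and *JUNB* rising most (1.60). AP-1 and immediate early genes had a median of 0.13 with 4 lower and 6 higher after the median of ratios, and of 0.29 with 4 and 8 after quantile normalization.

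Large families had shares near those of all genes, and their balance of calls turned or evened out with the scaling. Against nuclear protein-coding genes (34.8% lower, 17.9% higher), ZNF-named genes and solute carriers were more often lower and less often higher with the deposited values. Of 450 ZNF-named zinc finger genes 196 were lower (43.6%) and 35 higher (7.78%) (median -0.43), from *ZNF750* (-2.73) to *ZNF556* (2.13). ZNF-named zinc finger genes had a median of -0.008 with 102 lower and 86 higher after the median of ratios, and of 0.25 with 73 and 153 after quantile normalization. Of 202 solute carriers 89 were lower (44.1%) and 23 higher (11.4%) (median -0.48), from *SLC17A7*, a vesicular glutamate transporter (log2 fold change -3.58, standard error 0.27, limma adjusted *p* = 0.000153), to *SLC7A3*, a transporter of cationic amino acids (log2 fold change 2.61, standard error 0.63, limma adjusted *p* = 0.0103). Solute carriers had a median of -0.044 with 52 lower and 49 higher after the median of ratios, and of 0.051 with 51 and 54 after quantile normalization. Of 32 long intergenic noncoding RNAs 15 were lower (46.9%) and 3 higher (9.38%) (median -0.47), from *LINC00934* (-2.87) to *LINC00526* (1.44, not past the threshold without treated replicate 2 or without untreated replicate 2 or 3, largest limma adjusted *p* = 0.102). Long intergenic noncoding RNAs had a median of -0.17 with 11 lower and 5 higher after the median of ratios, and of 0.42 with 6 and 11 after quantile normalization. Of 77 antisense-named RNAs 42 were lower (54.6%) and 8 higher (10.4%) (median -0.80), from *COL1A2-AS1* (-3.33) to *MAFG-AS1* (1.93). Antisense-named noncoding RNAs had a median of -0.44 with 31 lower and 13 higher after the median of ratios, and of 0.22 with 19 and 23 after quantile normalization. The filter kept 21 through untreated libraries alone and 1 through treated libraries alone among solute carriers, 8 through untreated libraries alone and 1 through treated libraries alone among the intergenic RNAs and 17 through untreated libraries alone among the antisense RNAs. The use of strand in counting is not given in the sources used here, so reads of an antisense gene and its partner may not be told apart.

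**Figure D3:**
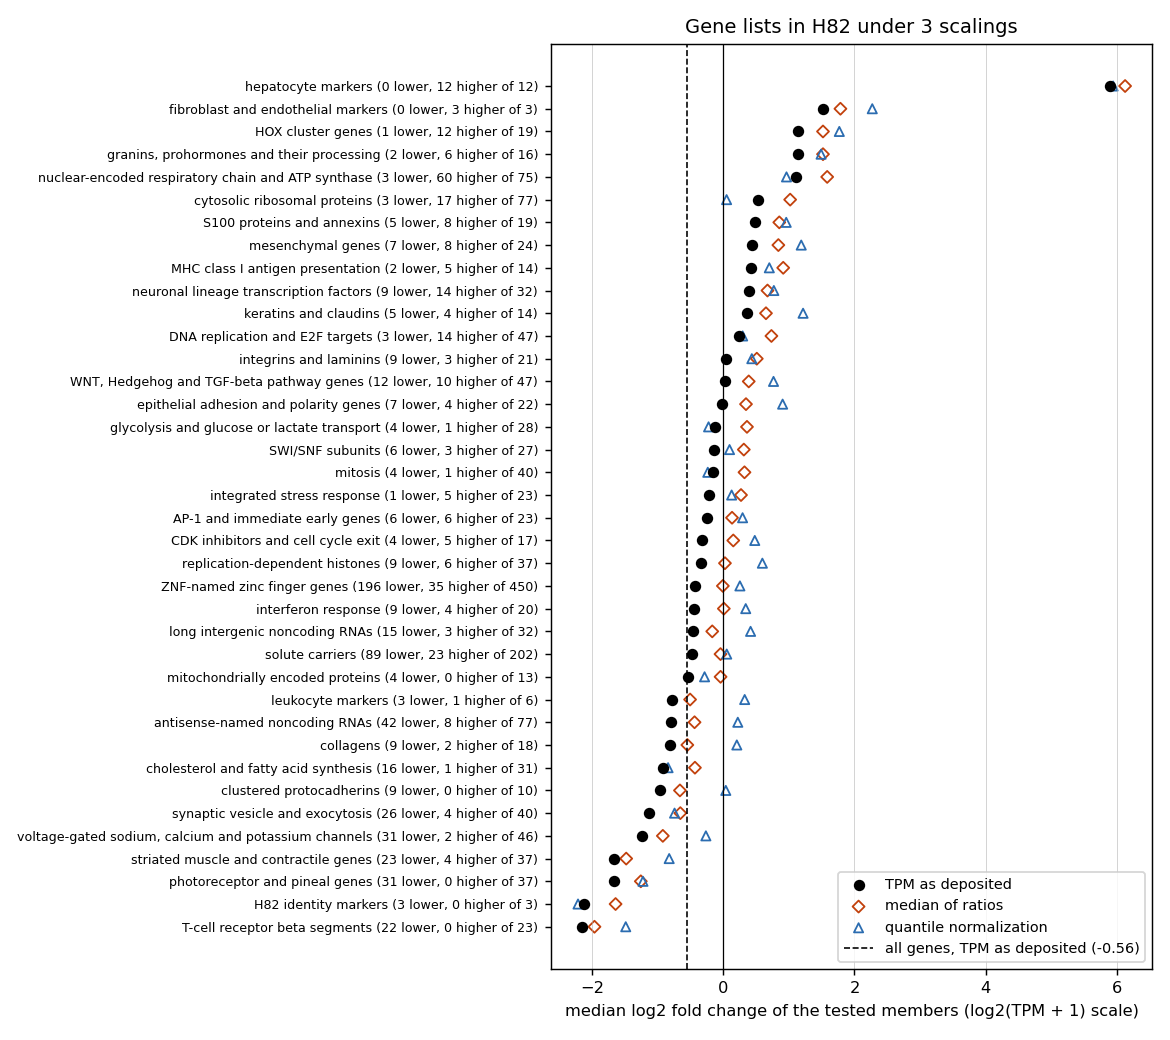
Median log2 fold change of the tested members of each of the 38 lists (black points), with the same median after the median of ratios (open diamonds) and after quantile normalization (open triangles), and with the counts of lower and higher members beside each name. The dashed line marks the median of all genes at -0.56. Several lists near it change side of 0 with the scaling. The hepatocyte list at the top and the photoreceptor and T-cell receptor lists at the bottom do not, among others.

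The response was then compared with and without treated replicate 2. Without it 8194 genes were lower (41.4%) and 2068 higher (10.5%). Of the higher genes 2009 were shared, which is 77.6% of the 2588 called with all 6 libraries and 97.2% of the 2068. Of the lower genes 8044 were shared, which is 89.4% of 8996 and 98.2% of 8194, and 0 genes were called in opposite directions. Of the 20 largest rises 19 were shared, with *AHSG* in place of *FEZF2*, and of the 20 largest falls 17.

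Among higher genes, 23 were at least 4-fold above both other treated libraries on log2(TPM + 1) in treated replicate 2, against 7 in treated replicate 1 and 1 in treated replicate 3. The values of these 23 chose them, so they are a description. *INSM1*, a zinc finger factor of neuroendocrine cells, was at 12.5, 15.8 and 14.8 TPM untreated and 32.1, 296 and 34.0 TPM treated. *SCGN*, the calcium sensor secretagogin, was at 0, 0.350 and 0.414 TPM untreated and 7.66, 60.1 and 8.35 TPM treated, *IGFBP5*, an IGF carrier, at 0.536, 0.725 and 0.890 TPM untreated and 5.42, 71.6 and 8.87 TPM treated and *NR2F1*, a nuclear receptor of forebrain patterning, at 0.889, 1.56 and 0.854 TPM untreated and 10.3, 81.2 and 14.6 TPM treated. All 4 were still higher in the remaining treated libraries, at 1.15 (limma adjusted *p* = 0.00400), 2.86 (limma adjusted *p* = 0.000939), 2.22 (limma adjusted *p* = 0.00205) and 2.67 (limma adjusted *p* = 0.00125) without replicate 2. *UBB*, a polyubiquitin gene with close copies, was at 0, 0.800 and 0.126 TPM untreated and 4.42, 75.8 and 3.23 TPM treated. With any 1 untreated library left out *INSM1* and *UBB* did not pass (largest limma adjusted *p* = 0.125 and limma adjusted *p* = 0.0920).

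Genes of the other line were counted in the H82 libraries. Of 123 genes at 10 TPM or more in all 7 H146 libraries and under 0.1 TPM in every untreated H82 library, 0 reached 1 TPM in any untreated H82 library, which their choice fixes, and 16, 52 and 10 did in treated replicates 1, 2 and 3. They summed to 1.71, 1.36 and 1.59 TPM in the untreated and 78.0, 434 and 37.1 TPM in the treated libraries, against 7667 to 9337 TPM in the H146 libraries. Treated replicate 2 stood above the other 2 treated libraries, and a fit without it still holds the lower values of those 2. The part of these values in the rises led by treated replicate 2 was not tested.

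**Figure D4:**
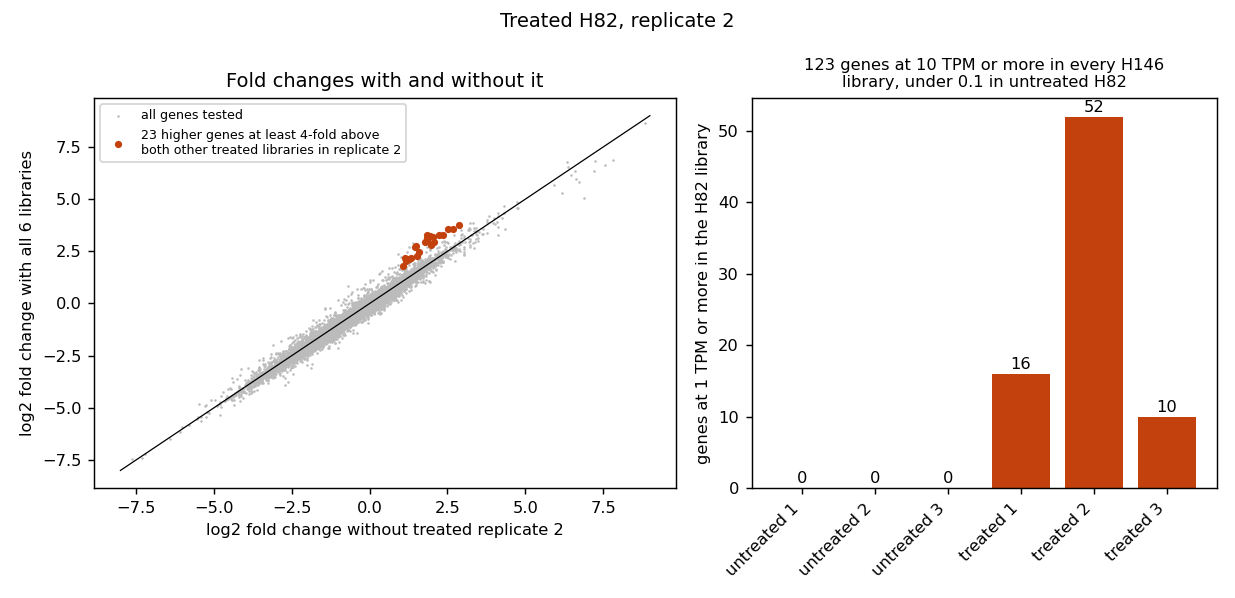
Left, log2 fold change of each gene tested with all 6 libraries (vertical) against that without treated replicate 2 (horizontal), with the line of equality and, in orange, the 23 higher genes that stood at least 4-fold above both other treated libraries in replicate 2, all of which lie above the line. Right, number of the 123 H146 genes at 1 TPM or more in each H82 library, which was 0 in the untreated libraries and 16, 52 and 10 in the treated ones.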

How the data were processed

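RNA of 3 untreated and 3 FHD-286-treated H82 libraries was compared. The authors aligned and counted reads with STAR on hg38 under GENCODE release 28, used DESeq2 for their own comparisons, and deposited TPM values for 56831 genes. How gene length was taken, and the use of strand, are not given in the sources used here. Reads per library are unknown, so the spread between libraries sets the precision. Coordinates came from GENCODE release 44, which matched 28536 symbols to a single gene, 1396 of them through an older symbol, and 29 symbols had been turned into dates by a spreadsheet. The promoter and microRNAs came from RefSeq (GRCh38.p14).

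Log2(TPM + 1) was fitted with limma 3.58.1 in R 4.3.3 (lmFit, eBayes with a trend) for genes that reached 1 TPM in 3 or more of the 6 libraries, two-sided, with Benjamini-Hochberg adjustment over 19770 genes and a threshold of 0.05. Lists were described by counts and medians, with no test. Genes named were the 20 largest falls and rises past the threshold without overlap of the groups, the 20 largest rises without treated replicate 2, identity markers, SMARCA4 and SMARCA2, the largest fall and rise of each list, and the 3 most abundant genes among those lower and higher by a log2 fold change of 1. Other genes were named after their values were seen. The members and lists were chosen with earlier results of these data known. Alternatives were a pseudocount of 0.1, no filter, scaling by the median of ratios or by quantiles, a block for the replicate number, eBayes with no trend and each library left out. The median of ratios without treated replicate 2 and protein-coding genes alone were added after seeing the data. On simulated data with these group sizes and 19770 genes, 17 of 100 genes changed by a log2 fold change of 1, 72 of 100 changed by 2 and 4 of 19570 unchanged genes were called. The changed genes had an untreated mean log2(TPM + 1) above 2, with as many raised as lowered. Far more genes were called in the real data, mostly as lower, so these shares do not give the power there. Python 3.11.15 with numpy 2.4.6, pandas 2.3.3 and matplotlib 3.10.9 prepared tables and plots. Results for some genes, also some that the rule for named genes takes, are not reported here.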

Additional observations from a re-analysis of the deposited data

How the results depend on the processing

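The count of lower genes was 6499 after the median of ratios, 4859 after quantile normalization, 5794 after the median of ratios with treated replicate 2 left out, and 5832 over 12700 protein-coding genes alone. The count of higher genes was 4793, 5256, 4099 and 1692 in the same order. By a log2 fold change of 1 or more, 2875 genes were lower with quantile normalization and 3609 over protein-coding genes alone, and 2800, 3123, 2651 and 813 were higher in the order above. The lower share of all calls was 77.7% with the deposited values, 57.5% after the median of ratios and 48.0% after quantile normalization. No filter gave 9855 lower and 2449 higher of 37980 genes. Of 38 lists 24 had a negative median with the deposited values, 15 after the median of ratios, 10 after quantile normalization and 14 after the median of ratios with treated replicate 2 left out. With each library left out in turn, 7617 to 9955 genes were lower, 1882 to 3820 higher, 6456 to 6854 lower and 1144 to 1523 higher by a log2 fold change of 1 or more, and 21 to 25 lists had a negative median. The highest counts came without treated replicate 1. Of the genes named by rule, SMARCA2 changed sign to 0.167 after the median of ratios, to 0.661 after quantile normalization, where it passed (limma adjusted p = 0.0356), and to 0.047 after the median of ratios with treated replicate 2 left out. With each library left out in turn, the log2 fold change of SMARCA4 ran from -0.091 without treated replicate 3, over -0.010 without untreated replicate 2, to 0.428 without treated replicate 1, where it passed. With the deposited values of all 6 libraries neither gene passed. Over 112 named genes and all alternatives, 1366 values kept direction and side of the threshold, 84 no longer passed, 1 passed anew and 5 changed sign. The cause of these differences was not tested.

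The replicate number as a block gave 8625 lower and 2333 higher genes. Deviations of same-numbered libraries from their group means correlated at 0.027, 0.00753 and -0.0378 across genes. The labels do not say whether same-numbered libraries were paired, and correlations across genes that are not independent cannot decide it.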

Other observations

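Over protein-coding genes, the median log2 fold change with the deposited values ran from -0.523 on chromosome 21 (108 genes, 46.3% lower and 15.7% higher) to -0.038 on chromosome 19 (969 genes, 25.8% lower and 21.6% higher) and -0.070 on chromosome 6 (639 genes, 27.4% and 23.6%). The other autosomes and chromosome X lay between them.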
